A study of Mus musculus with 12 samples.

Results

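Krt7, Krt8, Krt18 and Krt19 are keratin genes of simple, single-layered epithelia, and Vim encodes vimentin, the intermediate filament protein of mesenchymal cells. They were followed by gene symbol through the authors' deposited tables from mouse kidney epithelial cells. The 5 genes were 5 of 31026 entries in each of 4 tables, each had 1 entry of its own, and each was tested by the authors in all 4 comparisons. Messenger RNA was sequenced in 12 samples, 3 in each of 4 groups: JNK-deficient cells suspended for 4 hours, JNK-deficient cells attached as monolayers, control cells suspended for 4 hours and attached control cells. JNK-deficient cells had the genotype Jnk1flox/flox Jnk2-/- Rosa-CreER and are labelled Jnk1-/- Jnk2-/-; control cells carried Rosa-CreER, a Cre recombinase under hormone control that both genotypes share, and both are on the C57BL/6 background. How Cre was activated, and whether a group's samples are separate cultures or animals, is not given in the sources used here, so the spread behind the p-values may be technical. JNK1 and JNK2, stress-activated kinases encoded by Mapk8 and Mapk9, were studied here for their part in anoikis, cell death on loss of attachment to the matrix.

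Keratin filaments are built from pairs of a type II and a type I chain in equal amounts. Krt7 and Krt8 encode type II chains and Krt18 and Krt19 type I chains; keratins 8 and 18 are the classic partners of simple epithelia, and a chain without its partner is degraded. Keratin filaments run from desmosomes and hemidesmosomes through the cytoplasm and bear mechanical stress. Vimentin, a type III protein, forms filaments by itself, is usually absent from mature tubule epithelium, and is widely used as a marker of mesenchymal cells and of cultured or injured tubule cells.

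The type II genes and Krt18 lay together on chromosome 15 of mm10, the others on chromosomes 11 and 2. Krt7 spanned 101412403 to 101427806 and Krt18 spanned 102028216 to 102032026, both on the plus strand. Krt8 lay between them on the minus strand, at 101996711 to 102004342, with a gap of 23873 bases to Krt18. A long noncoding RNA gene, Gm36026, is annotated over Krt8 on the opposite strand, and whether the counting used strand is not given in the sources used here, so reads from both could be joined in the Krt8 value. Krt19 lay on chromosome 11 at 100140811 to 100145919 on the minus strand, and Vim on chromosome 2 at 13574311 to 13582826 on the plus strand.

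The 250 bases before the RefSeq start sites of Krt7 and Vim are shown because these genes moved furthest, in opposite directions, when cells were suspended. Both are from build GRCm38.p6, plus strand, Krt7 at chr15:101412153-101412402 and Vim at chr2:13574061-13574310. Capitals mark the motifs found: in Krt7 the GC box GGGCGG or its reverse complement, in Vim the TATA motif TATAAA and the CCAAT box or its reverse complement.
Krt7: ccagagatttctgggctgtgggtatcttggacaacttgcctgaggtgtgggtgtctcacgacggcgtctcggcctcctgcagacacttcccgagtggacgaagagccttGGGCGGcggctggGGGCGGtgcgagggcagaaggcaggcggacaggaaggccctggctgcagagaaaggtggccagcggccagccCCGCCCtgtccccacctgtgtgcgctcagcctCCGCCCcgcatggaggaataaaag
Vim: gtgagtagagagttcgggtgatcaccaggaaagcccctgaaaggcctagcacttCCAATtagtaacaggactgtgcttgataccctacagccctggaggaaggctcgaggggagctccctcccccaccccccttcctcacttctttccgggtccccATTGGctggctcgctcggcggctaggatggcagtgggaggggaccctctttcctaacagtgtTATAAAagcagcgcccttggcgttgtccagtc
The Krt7 sequence held 4 GC boxes, at 141 and 128 bases before the start on the plus strand and at 56 and 24 bases on the minus strand. The Vim sequence held TATAAA at 32 bases before the start, and CCAAT at 196 bases on the plus strand and at 94 bases on the minus strand. Both strands were searched over windows of 300 bases, 250 before and 50 after the start. Among 27025 mouse promoters of that length, 35.9% held GGGCGG, 14.2% TATAAA and 37.9% CCAAT. The AP-1 motif TGANTCA, the site of the JNK substrate c-Jun and its partners, was in 7.93% of them and in none of the windows of Krt7, Krt8, Krt18 and Vim. Krt8 held TATAAA directly at the start site, and the Krt18 window held none of these motifs. Matches are descriptions of letters, not of binding.

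Krt18, Krt8 and Krt7 were among the most abundant messenger RNAs of these cells. Levels are in FPKM, a count of fragments scaled to transcript length and to the size of the library, with 1 deposited value per group and none per sample, so no SD can be given. In the authors' deposited tables the 4 keratins were the 4 highest of 50 keratin entries in every group, and Krt20 came next. Krt7 ranked 40th of all 31026 entries in attached JNK-deficient cells and 31st in attached control cells, and was the highest keratin in both. In suspended cells it ranked 236th in JNK-deficient and 184th in control cells, behind Krt18 and Krt8. Krt18 stayed between ranks 63 and 114 over the 4 groups. Vim was much lower, at rank 5439 in suspended and 9673 in attached JNK-deficient cells, and at rank 2731 in suspended and 8714 in attached control cells. Between tables, values of the same group were offset from each other by up to 0.0895 log2 units, the same for all genes, which touches every level set across tables here. In bulk RNA, fewer cells of a type and less RNA per cell cannot be told apart.

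**Figure D1:**
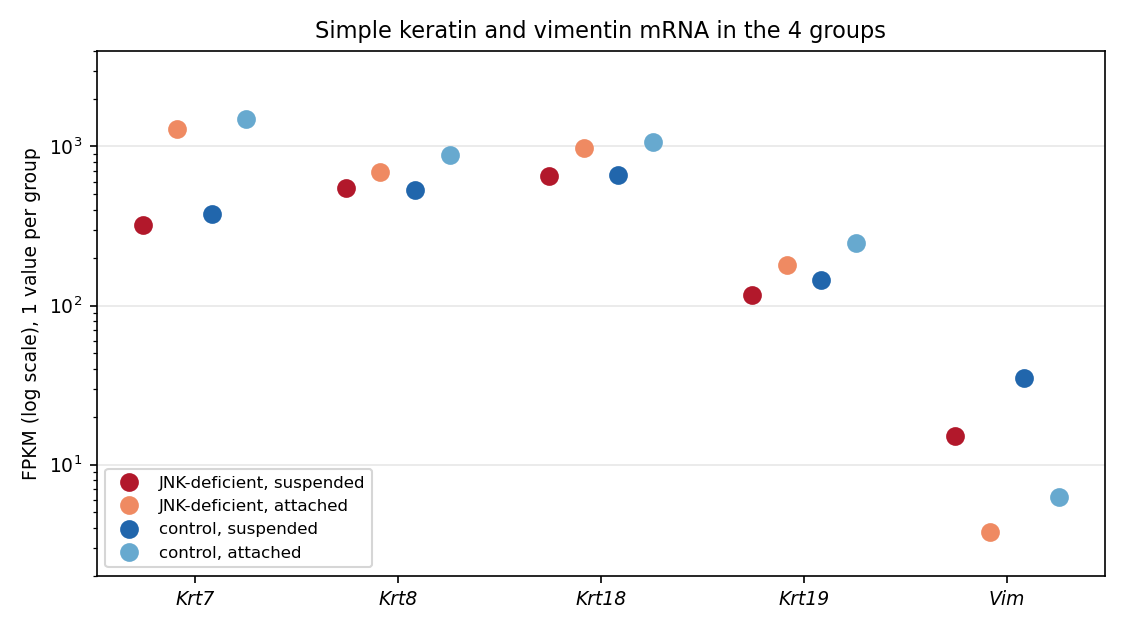
FPKM (log scale) of the 5 genes in the 4 groups, from the suspension tables; each point is the authors' single value for a group of 3 samples. Each keratin was lower in suspended than in attached cells of the same genotype and vimentin was higher, with Krt7 at 323 FPKM in suspended against 1285 FPKM in attached JNK-deficient cells.

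In suspension all 4 keratins fell and vimentin rose in both genotypes by the authors' test, a q-value below 0.05 over the whole table. This was a widespread response: the test called 59.7% of 13136 genes changed in JNK-deficient cells (30.6% higher, 29.0% lower) and 65.1% of 13386 in control cells (33.0% higher, 32.1% lower), and the count of 5 of 5 members called is to be read against those shares. The sizes set Krt7 and Vim apart from the rest of the members. The median log2 fold change of the 5 genes was -0.59 in JNK-deficient and -0.74 in control cells, against 0.04 and 0.02 over all tested genes.

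Krt7, the type II chain of ducts and urothelium, fell by similar log2 values in both genotypes. In JNK-deficient cells it was at 322.8 FPKM in suspension against 1285 FPKM when attached per the authors' deposited table, 3.98-fold lower (log2 -1.99, standard error at most 0.49, q = 0.000144). In control cells it was at 377.0 FPKM in suspension against 1481 FPKM when attached per the authors' deposited table, 3.93-fold lower (log2 -1.97, standard error at most 0.49, q = 0.000123). The standard errors were derived from the deposited p-values, and at the lowest p-value the table can give they are upper bounds.

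Krt8, the other type II chain, fell less than Krt7. In JNK-deficient cells it was at 548.8 FPKM in suspension against 688.4 FPKM when attached per the authors' deposited table, 1.25-fold lower (log2 -0.33, standard error 0.11, q = 0.00725). In control cells it was at 530.7 FPKM in suspension against 887.3 FPKM when attached per the authors' deposited table, 1.67-fold lower (log2 -0.74, standard error at most 0.18, q = 0.000123). The suspended values of the genotypes lay close together and the attached ones apart.

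Krt18, the type I partner of Krt8, fell by similar amounts in both genotypes. It was at 652.0 FPKM in suspended against 983.4 FPKM in attached JNK-deficient cells per the authors' deposited table (log2 -0.59, standard error at most 0.15, q = 0.000144). In control cells the authors' deposited table had 662.8 FPKM in suspension against 1071 FPKM when attached (log2 -0.69, standard error at most 0.17, q = 0.000123).

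Krt19, the smallest keratin, which lacks the usual tail domain, was the lowest of the 4. The authors' deposited table gave 116.0 FPKM in suspended against 179.3 FPKM in attached JNK-deficient cells (log2 -0.63, standard error at most 0.15, q = 0.000144). For control cells the authors' deposited table gave 144.6 FPKM in suspension against 248.7 FPKM when attached (log2 -0.78, standard error at most 0.19, q = 0.000123). Its 2 log2 fold changes were close to those of Krt18.

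Vim moved the other way. It was at 15.2 FPKM in suspended against 3.78 FPKM in attached JNK-deficient cells per the authors' deposited table, 4.03-fold higher (log2 2.01, standard error at most 0.50, q = 0.000144). In control cells it was at 34.9 FPKM in suspension against 6.21 FPKM when attached per the authors' deposited table, 5.61-fold higher (log2 2.49, standard error at most 0.61, q = 0.000123). Even in suspended control cells, where it was highest, vimentin was 1.99% of the summed FPKM of the 5 genes, against 0.168% in attached control cells. In JNK-deficient cells its share was 0.919% in suspension against 0.120% when attached.

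**Figure D2:**
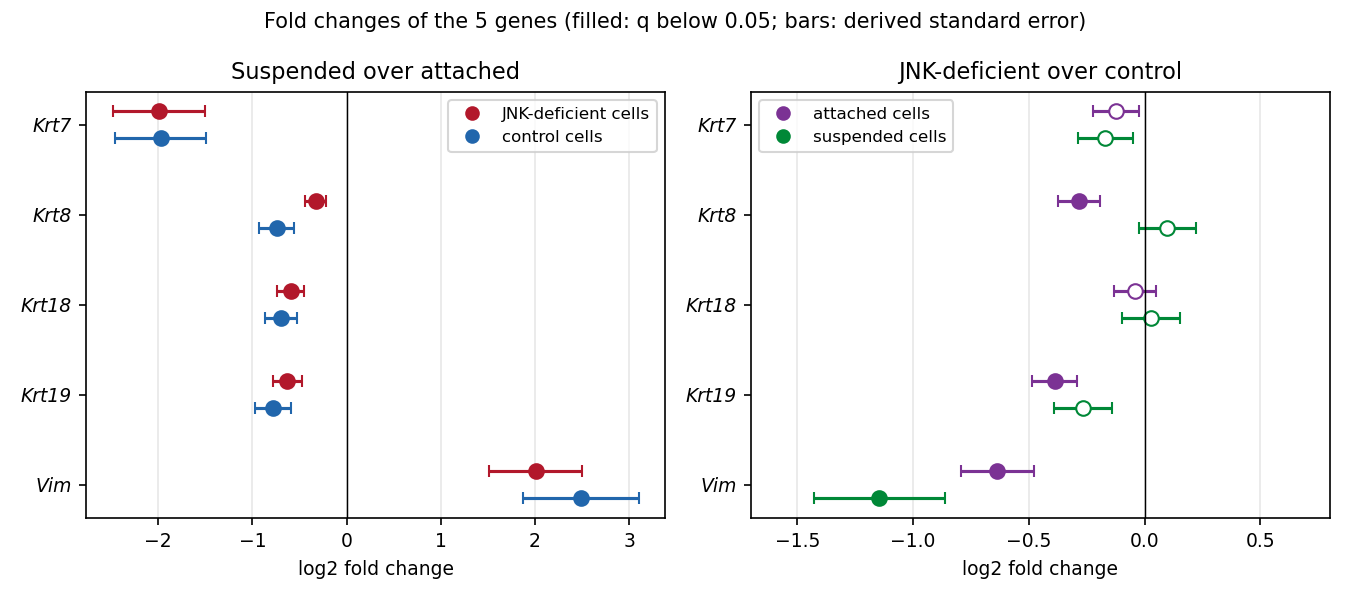
Log2 fold changes of the 5 genes for suspended over attached cells (left) and JNK-deficient over control cells (right), with filled points where q was below 0.05 and bars of 1 derived standard error, an upper bound where p was at its lowest step. Krt7 and Vim lie near -2 and 2 or beyond on the left, and Vim lies at -0.64 and -1.15 on the right.

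The suspension calls of Krt8, Krt18 and Krt19 changed when trends on transcript base composition and length were subtracted, and those of Krt7 and Vim did not. Krt8, Krt18 and Krt19 had 57.1%, 56.4% and 57.6% GC in their longest protein-coding transcripts, in decile 9 of the tested genes by GC, where the median gene was at log2 -0.63 in JNK-deficient and -0.53 in control cells. Krt7 had 52.3% GC, and the median of its decile was -0.05 in JNK-deficient and -0.03 in control cells. Vim had 53.9% GC, and the median of its decile was -0.28 in JNK-deficient and -0.23 in control cells, opposite to its own rise. After a smooth trend on GC content and transcript length was subtracted over all genes, with standard errors from the authors' p-values, Krt8 was at 0.45 in JNK-deficient cells (adjusted p = 0.000394) and at -0.11 in control cells (adjusted p = 0.62). Krt18 was then at 0.10 and Krt19 at 0.26 in JNK-deficient cells, and at -0.13 and -0.04 in control cells, none past the threshold. Krt7 was at -2.01 in JNK-deficient and -2.03 in control cells, and Vim at 2.27 in JNK-deficient and 2.67 in control cells, all past the threshold. With the length trend alone subtracted, Krt8 in JNK-deficient cells was at -0.13 and no longer passed (adjusted p = 0.30, on the authors' p-values). The calls of Krt8, Krt19 and Vim between attached genotypes were kept with each trend subtracted. The part of base composition or length in the measured falls was not tested. Where p was at its lowest step the corrected test uses an upper bound of the standard error, so that a call lost there may come from that bound.

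**Figure D3:**
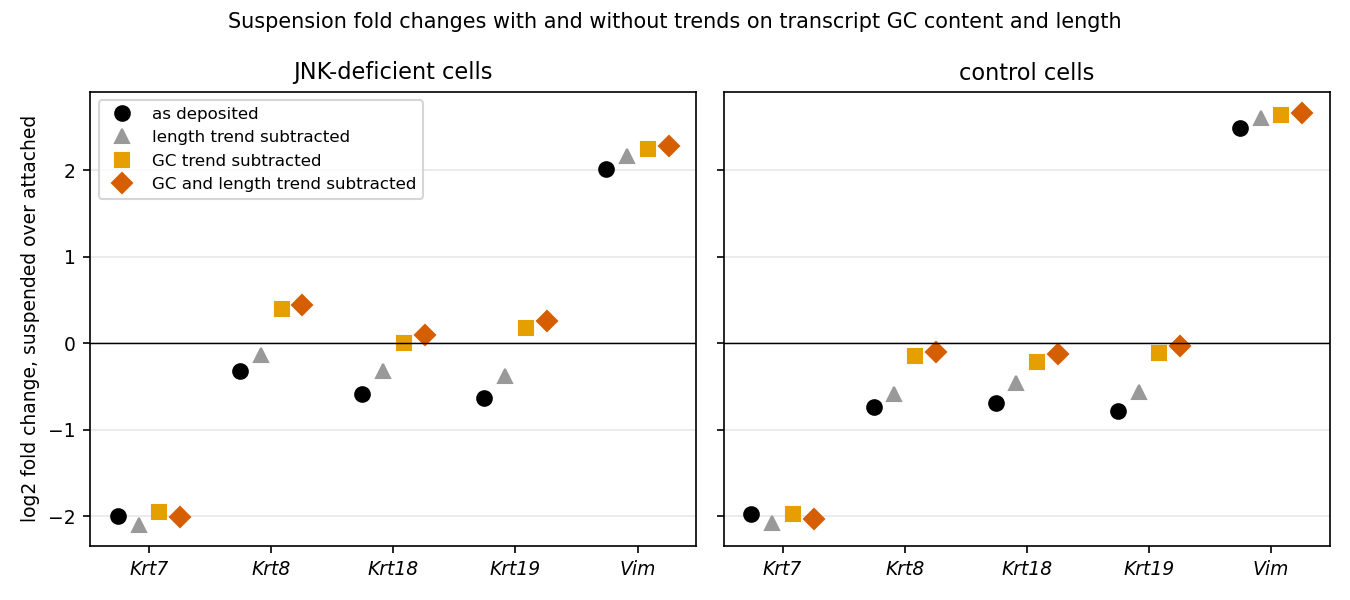
Log2 fold changes, suspended over attached, of the 5 genes as deposited and after subtracting trends on transcript length, GC content or both. Krt8, Krt18 and Krt19 move to between -0.13 and 0.45 with both trends subtracted, and Krt7 and Vim keep their sign and size.

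The suspension effects of the genotypes were compared directly by a z-test of the difference, JNK-deficient minus control, adjusted by Benjamini-Hochberg over 12765 genes. It is a normal approximation built on the authors' p-values, since no exact test can be had without values per sample. The standard error of a difference can be had from the 2 suspension tables or from the 2 genotype tables, and the one that was no upper bound was used, their mean where neither was one, and the smaller where both were. That choice called 230 genes, against 103 with the suspension tables alone and 162 with the genotype tables alone. The test called 1.80% of all genes tested, 0.548% with a higher and 1.25% with a lower value in JNK-deficient cells, and none of the 5 members at an adjusted p below 0.05; 1 of them, Krt8, had an unadjusted p below 0.05. In this test on the authors' p-values Krt8 differed by 0.41 (95% interval 0.12 to 0.71, p = 0.00647, adjusted p = 0.17), a smaller fall in JNK-deficient cells that does not survive adjustment. By the same test on the authors' p-values Krt7 differed by -0.02, with an interval of -0.32 to 0.28 (adjusted p = 0.993), and Krt18 by 0.10, with an interval of -0.20 to 0.40 (adjusted p = 0.93). The interval of Krt19, -0.16 to 0.46 around 0.15 (adjusted p = 0.851), and that of Vim, -1.11 to 0.15 around -0.48 (adjusted p = 0.662), rest on upper bounds of the standard error from the authors' p-values and are at their widest. A difference for Vim of a log2 unit is inside its interval.

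Between genotypes, vimentin was the member with the largest deficit in JNK-deficient cells, suspended and attached. In suspended cells it was at 16.0 FPKM in JNK-deficient against 35.4 FPKM in control cells per the authors' deposited table, 2.21-fold lower (log2 -1.15, standard error at most 0.28, q = 0.00099). In attached cells it was at 3.76 FPKM in JNK-deficient against 5.84 FPKM in control cells per the authors' deposited table, 1.55-fold lower (log2 -0.64, standard error at most 0.16, q = 0.000347). The 4 group levels of Vim therefore ran from attached JNK-deficient, the lowest, through attached control and suspended JNK-deficient to suspended control cells. Each genotype comparison shares its libraries with the suspension comparisons, so these values are not independent of those above.

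The keratins differed less. In attached cells 3 of the 5 genes were called lower and none higher, where the test called 28.8% of 12960 genes changed, 14.1% lower and 14.7% higher. Krt19 was at 178.4 FPKM in JNK-deficient against 233.7 FPKM in control cells per the authors' deposited table (log2 -0.39, standard error at most 0.10, q = 0.000347). Krt8 was at 684.9 FPKM in attached JNK-deficient against 833.8 FPKM in attached control cells per the authors' deposited table (log2 -0.28, standard error 0.09, q = 0.00894). Its partner Krt18 was at 978.6 FPKM in JNK-deficient against 1006 FPKM in control cells per the authors' deposited table and did not pass (log2 -0.04, standard error 0.09, q = 0.812). Krt7 did not pass either, with 1279 FPKM in JNK-deficient against 1392 FPKM in control cells per the authors' deposited table (log2 -0.12, standard error 0.10, q = 0.4).

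In suspended cells Vim was the 1 member of 5 called, where the test called 12.5% of 12795 genes, 6.93% lower and 5.57% higher. Krt19 was at 122.3 FPKM in JNK-deficient against 147.1 FPKM in control cells per the authors' deposited table and missed the threshold (log2 -0.27, standard error 0.13, q = 0.173). Krt7 had a log2 fold change of -0.17 (standard error 0.12, q = 0.422), Krt8 of 0.10 (standard error 0.12, q = 0.718) and Krt18 of 0.03 (standard error 0.12, q = 0.94) per the authors' deposited table. In the order of keratin levels, the suspended genotypes were thus neighbours that did not pass the test for any of the 4 genes. The attached genotypes were neighbours that passed it for Krt8 and Krt19.

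The summed keratin message shrank in suspension, and its make-up shifted away from Krt7. The 4 genes summed to 1640 FPKM in suspended and 3136 FPKM in attached JNK-deficient cells, and to 1715 FPKM in suspended and 3688 FPKM in attached control cells. Krt7 made up 19.7% of this sum in suspended and 41.0% in attached JNK-deficient cells, and 22.0% in suspended and 40.2% in attached control cells. Krt18 made up 39.8% in suspended and 31.4% in attached JNK-deficient cells, and 38.6% in suspended and 29.0% in attached control cells. The ratio of type II to type I messages was 1.13 in suspended and 1.70 in attached JNK-deficient cells, and 1.12 in suspended and 1.80 in attached control cells, so it was closer to parity in suspension in both genotypes. The Krt8 to Krt18 ratio was 0.842 in suspended and 0.700 in attached JNK-deficient cells, and 0.801 in suspended and 0.829 in attached control cells. These sums, shares and ratios are of levels per transcript length and carry no test, since the tables hold no value per sample. They were taken from FPKM with no trend on GC content or length subtracted. With both trends subtracted, the falls of Krt8, Krt18 and Krt19 in suspension were no longer called.

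**Figure D4:**
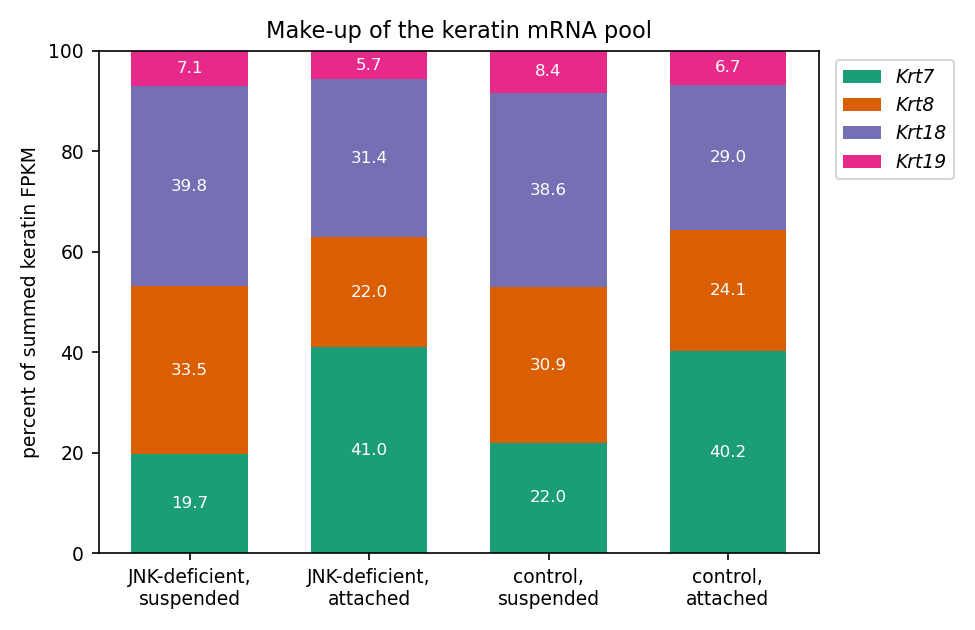
Percent of the summed FPKM of Krt7, Krt8, Krt18 and Krt19 in each of the 4 groups, from the suspension tables. Krt7 holds 19.7% and 22.0% in the suspended groups and 41.0% and 40.2% in the attached groups.

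Among 7484 other well-expressed genes tested in all comparisons, the 3 whose 4 log2 fold changes lay nearest to those of each member were taken by Euclidean distance. For Krt7 they were Gpaa1 at 0.12, Caskin2 at 0.153 and Cactin at 0.16. Nearest to Krt8 were Dcps at 0.0977, Dip2a at 0.108 and Smarcal1 at 0.109, and nearest to Krt18 were Nabp2 at 0.0438, Smc6 at 0.0591 and Gps1 at 0.0614. For Krt19 they were Mtap7d1, Mesdc1 and Hmgn1, at 0.0782 to 0.0889. Vim had no such close neighbours: Bcl2l11, which encodes the pro-apoptotic BH3-only protein Bim, was nearest at 0.34, then Cpeb1 at 0.53 and Ckmt1 at 0.605. The members were not each other's nearest genes. Krt18 ranked 283rd from Krt8 at a distance of 0.37, and Krt8 ranked 652nd from Krt18. The derived standard errors of the 4 Krt8 fold changes ran from 0.09 to at most 0.18. That is the size of the distances to its nearest genes, so ranks and named neighbours are uncertain. The 4 fold changes of a gene come from only 4 groups and are not independent of each other.

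Other simple keratins differed from the members in the genotype comparisons. Krt20, a type I keratin of gut and urothelium, was at 39.1 FPKM in suspended against 38.3 FPKM in attached JNK-deficient cells per the authors' deposited table (log2 0.03, q = 0.854). In control cells it fell, with 11.5 FPKM in suspension against 19.4 FPKM when attached per the authors' deposited table (log2 -0.75, q = 0.000123). It was higher in JNK-deficient than in control cells per the authors' deposited tables, by log2 1.82 in suspended (q = 0.00099) and 1.06 in attached cells (q = 0.000347). Krt80, a type II keratin, fell in suspension by log2 -1.78 in JNK-deficient and -2.33 in control cells per the authors' deposited tables, and was higher in JNK-deficient cells by 1.43 in suspension and 0.91 when attached. Krt23, at most 0.762 FPKM, was tested in 2 of the 4 comparisons; it passed between attached genotypes (log2 1.95, q = 0.00125) and did not in the suspension of JNK-deficient cells (q = 0.299) per the authors' deposited tables. Of 38 stratified and hair keratin entries, 3 were tested in the JNK-deficient suspension comparison (1 called higher, 0 lower) and 8 in the control one (3 higher, 1 lower). Of all tested genes, 30.6% were higher and 29.0% lower without JNK, and 33.0% higher and 32.1% lower in controls. Between attached genotypes 3 of 4 tested entries were called lower without JNK, where 14.1% of all tested genes were lower. Between suspended genotypes 0 of 7 were called, where 12.5% of all tested genes were. No entry of the list reached 1 FPKM in the JNK-deficient suspension comparison. Without JNK the 38 summed to 4.57 FPKM suspended against 2.67 FPKM attached, and in controls to 10.98 FPKM against 5.83 FPKM.

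Among the other cytoplasmic filament genes, Synm moved with Vim in suspension and between suspended genotypes. Between attached genotypes, where Vim was called lower, Synm was not called. Synemin builds filaments with vimentin or desmin. Synm was at 1.66 FPKM in suspended against 0.332 FPKM in attached JNK-deficient cells per the authors' deposited table (log2 2.32, q = 0.000144). In control cells it was at 3.41 FPKM in suspension against 0.422 FPKM when attached per the authors' deposited table (log2 3.02, q = 0.000123). Between suspended genotypes Synm was lower in JNK-deficient cells (log2 -0.98, q = 0.00099) per the authors' deposited table. Nes, which encodes nestin, another partner of vimentin, went the other way, at 5.82 FPKM in suspended against 18.5 FPKM in attached JNK-deficient cells per the authors' deposited table (log2 -1.67) and with log2 -1.96 in control cells. Of 12 such entries, 1 of 5 tested was called higher and 1 lower in JNK-deficient cells, and 2 higher and 1 lower of 9 tested in control cells, fewer than the shares of all tested genes called in the same directions (30.6% and 29.0% in JNK-deficient, 33.0% and 32.1% in control cells). The nuclear lamins Lmna and Lmnb2 fell in both genotypes, Lmna by log2 -1.67 in JNK-deficient and -1.85 in control cells per the authors' deposited tables, a call that Lmna lost in both when the GC and length trend was subtracted (-0.59 in JNK-deficient and -0.90 in control cells).

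Junction genes that anchor keratin filaments moved in both directions. Of the desmosome list, 5 of 8 tested genes were called higher and 1 lower in JNK-deficient cells, where 30.6% of all tested genes were higher and 29.0% lower. In control cells 6 of 9 were higher and 2 lower, where 33.0% of all tested genes were higher and 32.1% lower. The medians of the list in JNK-deficient and control cells were log2 0.66 and 0.90, against 0.04 and 0.02 over all tested genes. The desmosomal cadherin gene Dsc2 was at 7.31 FPKM in suspended against 0.943 FPKM in attached JNK-deficient cells per the authors' deposited table (log2 2.96), with log2 2.95 in control cells. Dsp, for desmoplakin, which ties keratin to the desmosome, was higher by log2 0.96 in JNK-deficient and 1.22 in control cells per the authors' deposited tables. Jup, for plakoglobin, was at -1.16 in both genotypes per the authors' deposited tables, and at -0.17 in JNK-deficient and -0.30 in control cells, past no threshold, with that trend subtracted.

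In the hemidesmosome list 1 of 3 tested genes was called higher and 2 lower in each genotype, where the test called 30.6% of all genes higher and 29.0% lower in JNK-deficient cells and 33.0% higher and 32.1% lower in control cells. A list of 3 genes says little against these shares, and the counts of the lists that follow are to be read against them too. Itga6 rose by log2 1.63 in JNK-deficient and 0.89 in control cells per the authors' deposited tables, while Itgb4, its partner integrin chain, was at -0.87 in JNK-deficient and -1.14 in control cells. Of the cytolinkers, which crosslink filaments, 1 was called higher and 3 lower in each genotype, of 5 tested in JNK-deficient and 6 in control cells. Plec, for plectin, shares its entry with Parp10 and was at -0.84 in JNK-deficient and -0.70 in control cells per the authors' deposited tables. The list of keratin-binding proteins had 2 of 8 called higher and 4 lower in JNK-deficient cells, and 2 higher and 5 lower in control cells, beside 59.7% of all tested genes changed in JNK-deficient and 65.1% in control cells. Tchp, for trichoplein, rose by log2 1.38 in JNK-deficient and 1.78 in control cells, and Tradd, an adaptor of the tumour necrosis factor receptor that binds keratins, fell by -1.51 in JNK-deficient and -1.92 in control cells per the authors' deposited tables. With both trends subtracted Tradd was at -0.66 in JNK-deficient cells and no longer passed. Itgb4, Evpl, Cd151 and Fbf1 changed sign in at least 1 genotype when the GC trend, alone or with the length trend, was subtracted.

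**Figure D5:**
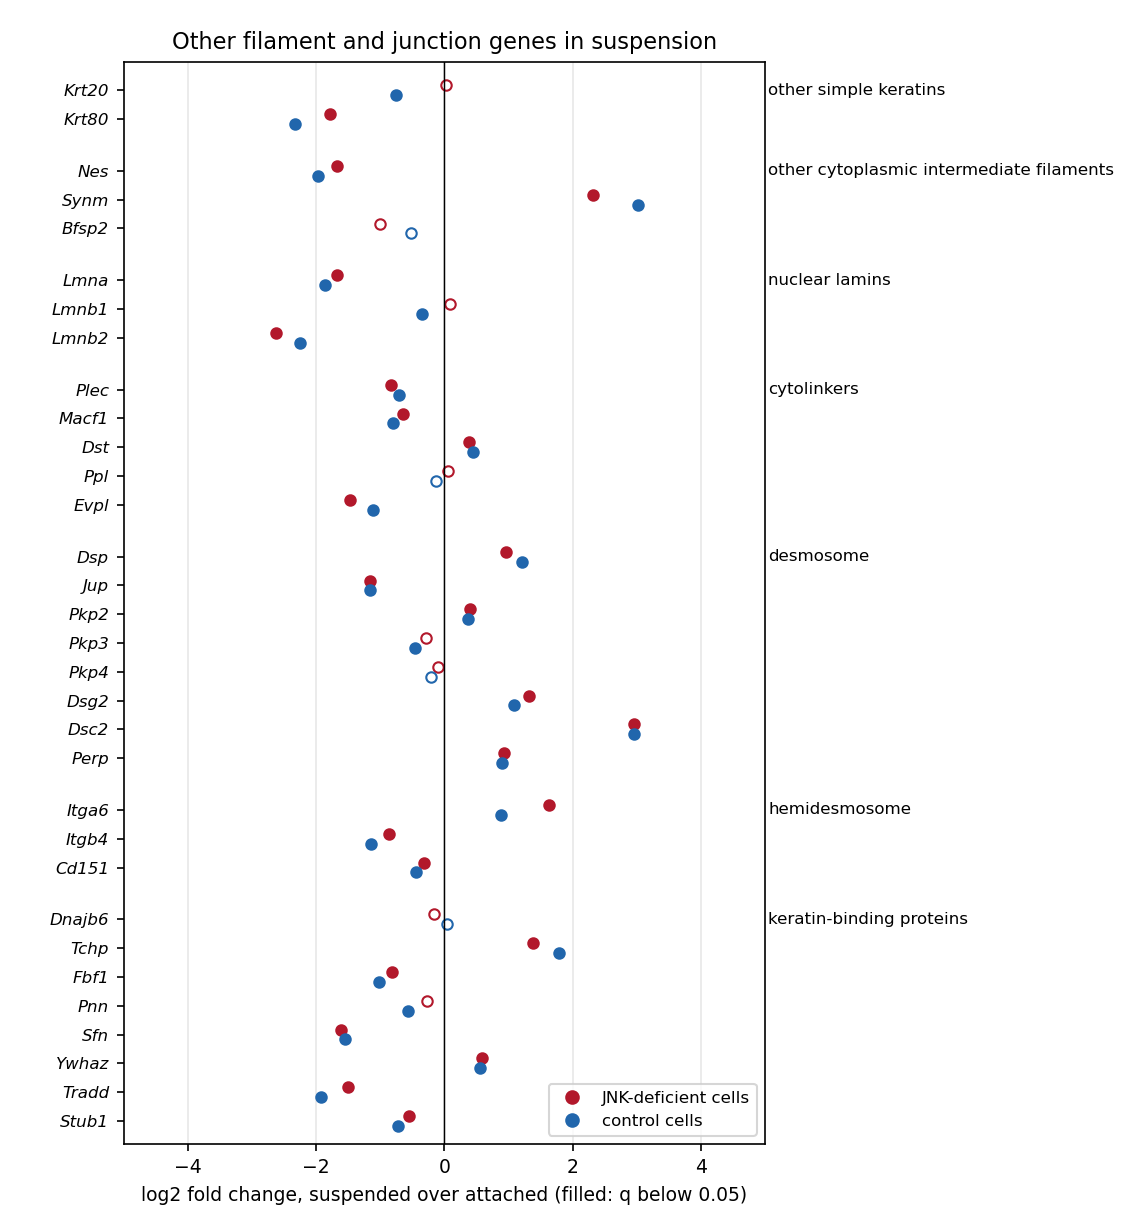
Log2 fold changes, suspended over attached, of other keratin, filament, linker and junction genes that were tested in both genotypes with at least 1 FPKM in a group, with filled points where q was below 0.05. Synm lies at 2.32 in JNK-deficient and 3.02 in control cells, and Dsc2 at 2.96 and 2.95.

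Markers of the cells that could be in a kidney culture were read beside these results. All 13 kidney epithelial markers were at 1 FPKM or more in the suspension tables. Without JNK their sum was 1655 FPKM suspended against 2841 FPKM attached, and in control cells 1610 FPKM against 2785 FPKM. Cldn4 alone was at 465 FPKM suspended against 1328 FPKM attached in control cells. All 13 markers were tested and they moved in both directions, more of them lower. Without JNK 3 were called higher and 8 lower, where 30.6% of all tested genes were higher and 29.0% lower. In controls 3 were higher and 9 lower, where 33.0% of all tested genes were higher and 32.1% lower. The medians of the list were log2 -0.56 without JNK and -0.57 in controls, against 0.04 and 0.02 over all tested genes. The largest changes of the list were falls. Cldn3 was at log2 -3.52 without JNK and -3.16 in controls, and Pax2 at -3.34 and -3.20. Cdh1 went up, at log2 0.95 without JNK and 0.99 in controls, as did Ocln at 1.19 and 0.84. The 9 fibroblast markers summed to 1.74 FPKM in suspended and 0.494 FPKM in attached JNK-deficient cells, and to 3.44 FPKM in suspended and 0.397 FPKM in attached control cells. Pdgfra was the 1 of the 9 that reached 1 FPKM and the 1 that was called, with 1.41 FPKM in suspended JNK-deficient and 2.99 FPKM in suspended control cells per the authors' deposited tables. Col1a2, Col3a1 and Lum were listed at 0 in suspended JNK-deficient cells. The fibroblast sum moved in the direction of Vim in suspension, where it was higher, and between suspended genotypes, where it was lower without JNK. In the attached genotype comparison the fibroblast sum was higher without JNK, at 0.491 against 0.373 FPKM, where Vim was lower. None of the 9 was tested or reached 1 FPKM there, so this difference in the sum is near the floor and carries no test. The part of this sum in the Vim values was not tested. Endothelial markers summed to 1.43 FPKM in suspended and 0.143 FPKM in attached JNK-deficient cells, and to 2.59 FPKM in suspended and 0.227 FPKM in attached control cells. These values lie near the floor. In JNK-deficient cells 1 of the 6 was tested, it was not called, and none reached 1 FPKM. In control cells 3 were tested and 2 called higher, and only Emcn reached 1 FPKM, at 1.08 FPKM in suspension. Podocytes, a kidney cell type known to express vimentin, had 5 markers. Without JNK these summed to 18.4 FPKM suspended against 3.05 FPKM attached, and in control cells to 35.7 FPKM against 7.62 FPKM. In suspended cells Synpo alone was at 10.7 FPKM without JNK and at 25.9 FPKM in controls. Wt1 was listed at 0 in suspended JNK-deficient cells and in both control groups. Nphs1 was listed at 0 in suspended JNK-deficient and attached control cells. Only 2 of the 5 were tested in each suspension comparison, and each was called higher. These counts are to be read against the shares of all tested genes called higher, 30.6% without JNK and 33.0% in controls. Smooth muscle and mesangial markers summed to 1.56 FPKM in suspended and 3.19 FPKM in attached JNK-deficient cells, and to 4.36 FPKM in suspended and 3.64 FPKM in attached control cells. Leukocyte markers summed to 78.8 FPKM in suspended and 78.3 FPKM in attached JNK-deficient cells, and to 70.2 FPKM in suspended and 55.9 FPKM in attached control cells. At most 4 of the 8 entries reached 1 FPKM in a group. Cd14 was highest in attached cells, at 61.3 FPKM without JNK and 38.9 FPKM in controls. In suspended cells Cd68 was highest, at 30.8 and 34.5 FPKM. Emr1 was listed at 0 in both JNK-deficient groups, and Cd3e in the suspended one. The part of these cell types in the keratin and Vim values was not tested.

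Both targeted genes were lower in JNK-deficient than in control cells, and Mapk9 transcripts were still measured in cells labelled Jnk2-/-. Mapk8 was at 2.52 FPKM in suspended JNK-deficient against 10.9 FPKM in suspended control cells per the authors' deposited table (log2 -2.11, q = 0.00099), and at 2.26 FPKM in attached JNK-deficient against 8.76 FPKM in attached control cells (log2 -1.95, q = 0.000347). Mapk9 was at 17.4 FPKM in suspended JNK-deficient against 29.2 FPKM in suspended control cells per the authors' deposited table (log2 -0.74, q = 0.00099), and at 8.89 FPKM in attached JNK-deficient against 12.8 FPKM in attached control cells (log2 -0.52, q = 0.000347). It was thus 1.67-fold lower in suspended and 1.44-fold lower in attached cells per the authors' deposited tables, against 4.31-fold and 3.87-fold for Mapk8. Which part of either gene is deleted is not given in the sources used here, so a level over the whole gene does not check the labelled loss.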

How the data were processed

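RNA was sequenced (Illumina HiSeq) from 12 samples of mouse kidney epithelial cells. Per the submitters' processing notes, TopHat, Bowtie, Cufflinks 1.0.3, Cuffdiff and the build mm10 were used; the annotation and other versions stand in no source used here. The authors deposited 4 pairwise tables, each with 1 FPKM value per group, a log2 ratio, a p-value in steps of 5e-05 and a q-value per entry. No value per sample was used here and the depth is unknown, so no intervals on levels could be had. Locus starts were given counting from 0, and 1 was added.

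Members were found by symbol. The members and gene lists were chosen with earlier results of these data known. A change was called at the authors' q-value below 0.05. Standard errors came from the authors' p-values: the absolute log2 fold change was divided by the standard normal quantile of the p-value, for p up to 0.95, and this is an upper bound at the lowest step of p. The difference of suspension effects was a z-test with standard errors from the suspension or the genotype tables, whichever gave no upper bound, their mean where neither gave one and the smaller where both did, adjusted by Benjamini-Hochberg; the standard error was an upper bound for 1717 of 12765 genes and its median was 0.228. GC and length trends were splines with 6 and 5 degrees of freedom over the longest protein-coding GENCODE transcript per symbol, a choice made after seeing the values; 86.2% to 86.7% of the genes with a standard error had one. Promoters came from RefSeq.

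Named genes were the members, Mapk8, Mapk9, the other simple keratins, up to 4 of the largest changes per list with at least 1 FPKM in the higher group, and the 3 nearest genes of each member with at least 10 FPKM in a group; of these, examples are given. Only the z-test of the difference was tried on simulated data. Those data were drawn from the same normal approximation, so the approximation itself was not tested. The other steps were not simulated. All steps ran in Python 3.11.15 with numpy 2.4.6, pandas 2.3.3, scipy 1.17.1, statsmodels 0.14.6 and matplotlib 3.10.9. The alternatives were a q-value threshold of 0.01, a floor of 1 FPKM, log2 of FPKM plus 1, median centring, the trends, and other standard errors.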

Additional observations from a re-analysis of the deposited data

Results flagged for a closer look

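The suspension effect of Krt20 differed between the genotypes. Its log2 fold change, suspended over attached, was 0.03 in JNK-deficient cells and -0.75 in control cells, a difference of 0.78 (95% interval 0.34 to 1.23, adjusted p = 0.0363 over 12765 genes by the z-test on the authors' p-values). The standard error was an upper bound from either pair of tables, and the smaller was used. The adjusted p was 0.0633 with standard errors from the suspension tables and 0.615 with those from the genotype tables. No explanation was tested.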

How the results depend on the processing

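No paired analysis was possible because the tables hold 1 value per group and none per sample; leaving out single samples could not be run for the same reason. Of 680 values recomputed under an alternative, 615 kept their side of the threshold and, where called, their direction (for counts, stayed within 1.5 times). Of the others, 48 lost the call, 14 changed sign and 3 counts moved further. Part of the 615 was fixed in advance. The log2 of FPKM plus 1 kept the authors' q-value and the sign, so it could not change a call. Ratios and shares of levels from the genotype tables could hardly move, since tables differ by an offset common to all genes. Krt7 and Vim kept their direction and their side of the threshold in all 4 comparisons under each alternative run; the uncalled difference of Krt7 was at 0.0019 with the GC and length trend subtracted, against -0.02. With the GC and length trend subtracted and standard errors from the authors' p-values, JNK-deficient cells had log2 fold changes of 0.45 for Krt8 (adjusted p = 0.000394), 0.10 for Krt18 (adjusted p = 0.586) and 0.26 for Krt19 (adjusted p = 0.154), and control cells -0.11 for Krt8 (adjusted p = 0.62), -0.13 for Krt18 (adjusted p = 0.52) and -0.036 for Krt19 (adjusted p = 0.88). With the GC trend alone, chosen after seeing the data, the values of these genes in the same order were 0.40, 0.0077 and 0.18 in JNK-deficient cells and -0.15, -0.21 and -0.11 in control cells. With the length trend alone, also chosen after seeing the data, Krt8 was at -0.13 in JNK-deficient cells (adjusted p = 0.30, on the authors' p-values). In the suspension comparisons, members past the threshold with both trends subtracted numbered 3 of 5 in JNK-deficient and 2 of 5 in control cells. Of all genes in that test, 5600 of 11110 passed in JNK-deficient and 6668 of 11380 in control cells. The 3 include Krt8, which was at 0.45 there against -0.33 as deposited. In the genotype comparisons 3 of 5 passed in attached and 1 of 5 in suspended cells, beside 3362 of 10873 and 1419 of 10658 genes. Signs also changed for Evpl (0.21 in control cells with both trends; with GC alone 0.046 in JNK-deficient and 0.28 in control cells), Itgb4 (0.33 in JNK-deficient cells with both trends; with GC alone 0.40 in JNK-deficient and 0.0072 in control cells), Cd151 (0.036 in JNK-deficient cells with both trends) and Fbf1 (0.0075 in JNK-deficient cells with GC alone). At a q-value below 0.01, 969 genes against 1600 were called between suspended genotypes. For the difference of suspension effects, 103 genes were called with standard errors from the suspension tables, 162 with those from the genotype tables and 100 at an adjusted p below 0.01, against 230. The cause of these changes was not tested. Without values per sample the spread behind a single gene cannot be seen, and a p at its lowest step gives only an upper bound of the standard error.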
